A study of Mus musculus with 8 samples.

Results

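The suppressor of cytokine signalling (SOCS) family has 8 members in the mouse, *Cish* and *Socs1* to *Socs7*, and they were taken by name from the 21951 protein-coding genes of the annotation. In bone marrow-derived macrophages (BMDMs), 6 of the 8 members carried at least 1 listed N6-methyladenosine (m6A) peak, against 32.1% of all protein-coding genes, and these 6 held 29 of the 25484 listed peaks. That share is over all annotated genes, expressed in BMDMs or not. The same holds for the later shares of protein-coding genes and of genes with long transcripts. The members with the longer transcripts, *Socs4*, *Socs5*, *Socs6* and *Socs7*, had a peak in every mouse. *Cish* had peaks in both wild-type mice and in neither mouse with deleted *Mettl3*, *Socs1* had a single peak in 1 mouse of each genotype, and *Socs2* and *Socs3* had none. BMDMs came from C57BL/6 mice aged 8 weeks and were cultured for 7 days with M-CSF at 40 ng/mL. The 2 WT mice carried *Mettl3* fl/fl with Lyz2 +/+, and the 2 KO mice carried *Mettl3* fl/fl with Lyz2 cre/+. The floxed allele was thus shared by both groups, and Cre was driven from the Lyz2 locus, which is active in myeloid cells, so that the deletion was made in those cells and not throughout the mouse. The paper reports that *Mettl3* mRNA was reduced in part, not lost, in KO BMDMs, and that the m6A level of their mRNA was lower. From each mouse, RNA was sequenced with an m6A immunoprecipitation (IP) and without it (input), which gave 8 libraries, and each mouse has its own deposited peak list (WT-1 and WT-2, and likewise KO-1 and KO-2).

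SOCS proteins are negative feedback regulators of cytokine signalling. Each has a central SH2 domain, which binds phosphorylated tyrosine, and a C-terminal SOCS box, which recruits elongins and a cullin to mark bound proteins for degradation. SOCS1 and SOCS3 also block Janus kinases directly, and in macrophages they restrain the responses to interferons and to cytokines of the IL-6 family. CIS, the product of *Cish*, and SOCS2 act mainly on receptors that signal through STAT5. m6A is written on mRNA by a complex in which METTL3 is the catalytic subunit, mostly at an adenosine in a short motif of which GGAC is a common form, and it is found above all around stop codons and in long internal or last exons. The question put to the SOCS genes was where their transcripts carried m6A peaks in macrophages and whether these places differed with the *Mettl3* genotype.

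The sites below are shown because they give a sequence to the peaks on which the results turn. For the regions of *Cish*, *Socs4*, *Socs5* and *Socs7* that were in at least 3 lists, or in both lists of a single genotype, the GGAC nearest to its midpoint is printed with its flanks as 30 bases of the transcript strand (GRCm38), with the motif in capitals. The *Socs6* region, in all 4 lists, also held GGAC, and no sequence of it is printed. A letter match marks a place where m6A could lie and is not a mapped methylated base.
Cish: acagtccccagctGGACttggggttctgct
Socs4: actggggtgtcatGGACaaatatgcagccg
Socs5: gccaggtgtccggGGACagccacgcgcacg
Socs7: ggccctggggctcGGACagccggcggggcc
The *Cish* site (chr9:107300951-107300980, + strand) lay in the 3′ UTR, 64 bases past the end of the coding sequence (CDS), and was under the peaks of both WT lists. The *Socs4* site (chr14:47290460-47290489, + strand) was at codon 288, and the *Socs5* site (chr17:87134655-87134684, + strand) at codon 345. Each was under the peaks of WT-2, KO-1 and KO-2. The *Socs7* site (chr11:97362824-97362853, + strand) was at codon 66, in the first exon, under the peaks of WT-1, WT-2 and KO-2. Further sites of *Socs4* and *Cish* were chosen after the peaks had been seen, because each was under a peak in every list that listed the region. *Socs7* had 2 more such sites, which are not printed.
Socs4 codon 73: cgtccattgagttGGACttagatcattcct
Cish codon 237: tggtggccgacgtGGACtgcctacccctgc
Cish 3′ UTR, at 107301012: gcatgtgacagctGGACcagagaatgccag
Cish 3′ UTR, at 107301136: agcgagacaggcaGGACctcgtctctccac
Cish 3′ UTR, at 107301160: ctccacagaggctGGACctaggtctccact
The *Socs4* site at codon 73 (chr14:47289815-47289844, + strand) was the GGAC that the peaks of all 4 lists held. The 4 further *Cish* sites started at chr9:107300824, 107301012, 107301136 and 107301160, and with the printed *Cish* site above they made 5 GGAC sites in the 350 bases that both WT peaks covered. The motif GGAC was searched on the transcript strand alone, and each of the 9 printed sites also met DRACH, the wider m6A consensus.

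The lists give a position, a strand and the score of the peak caller, without read counts, and sequencing depth is therefore unknown. A missing peak is therefore not a level of 0, since a peak can be missed where few fragments of a transcript were sequenced, and fewer cells with a transcript cannot be told apart from less RNA per cell. The lists held between 6159 (WT-1) and 6684 (KO-2) peaks on 4220 to 4485 genes. *Mettl3* had no peak in any list, so the deleted gene did not check the genotypes. The KO lists stood closer to each other than the WT lists did. KO-1 and KO-2 had 1201 peaks with identical start and end, against 276 to 426 for the other pairs, and shared 0.518 of the exon bases under peaks in either (Jaccard index), against 0.359 for the WT lists and 0.373 to 0.395 across the genotypes.

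WT-1 listed 6 SOCS peaks and WT-2 listed 9, while KO-1 and KO-2 each listed 7, which is 7.5 ± 2.12 in WT and 7 ± 0 in KO BMDMs (SD, n = 2). Neither genotype had more SOCS peaks than both mice of the other. Of the 8 members, 4 had a peak in all 4 lists, against 9.78% of protein-coding genes. These 4 also had the longest transcripts of the family, from 4648 to 7015 bases, where those of the other 4 ran from 2222 to 2908 bases. Among the genes whose chosen transcript has at least 4000 bases, 23.3% had a peak in all 4 lists, against 4 of 4 such SOCS members.

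**Figure D1:**
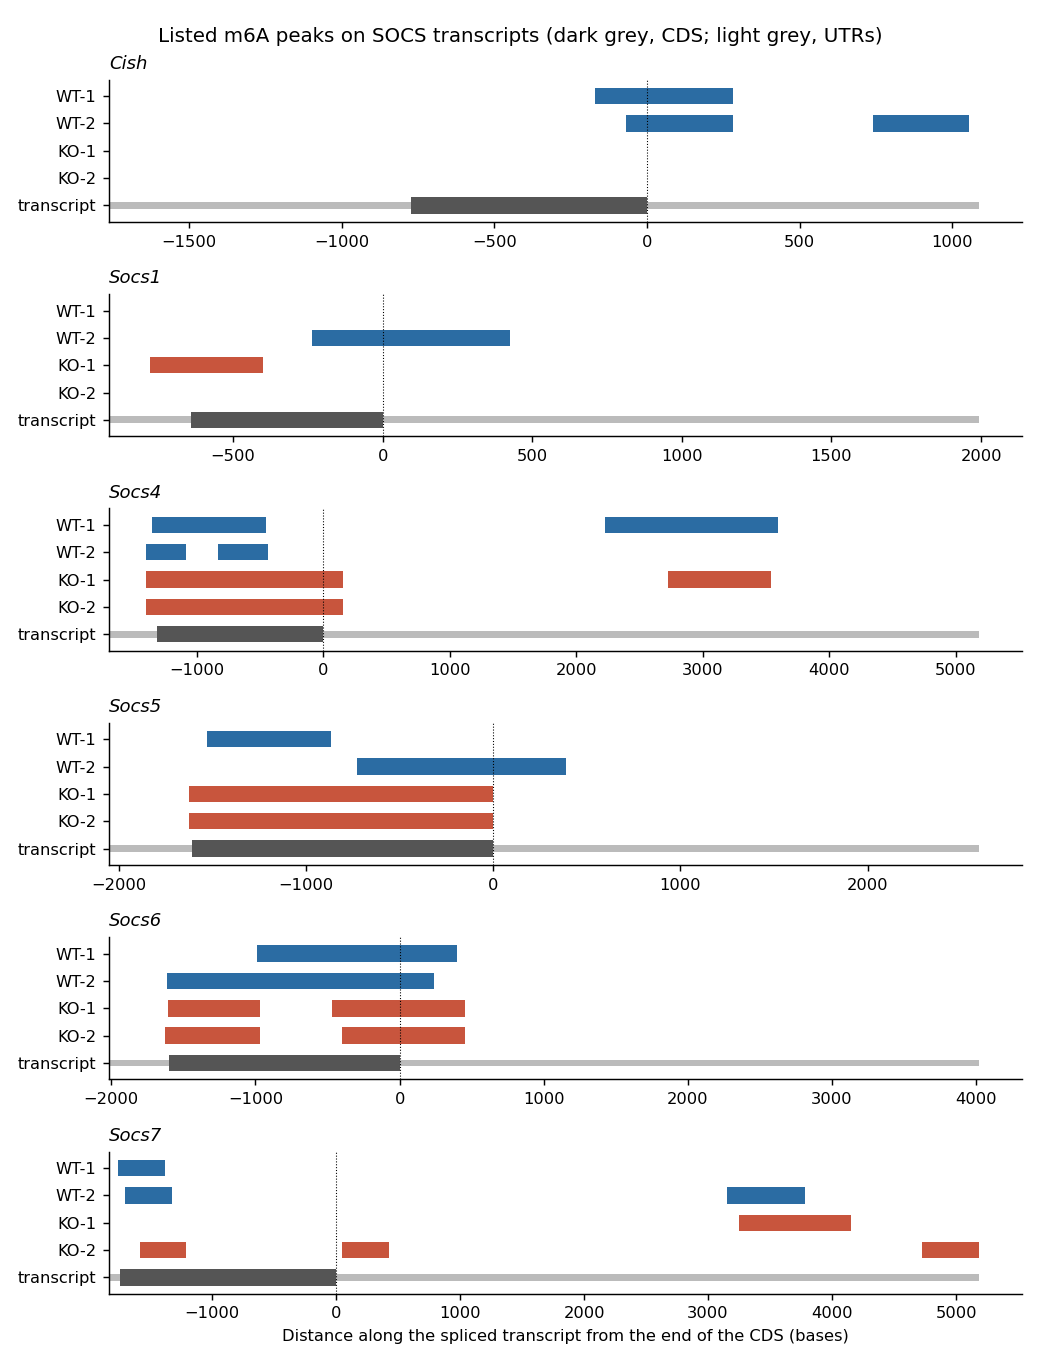
Position of every SOCS peak along the spliced transcript of the 6 members with a peak, in bases from the end of the CDS (dotted line at 0), with 1 row per mouse (WT in blue, KO in red) and the transcript below (CDS in dark grey, UTRs in light grey). *Cish* has bars only in the WT rows, and the *Socs5* bars of KO-1 and KO-2 have the same ends.

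Merged where they overlapped by at least 1 base on the same strand, the 29 peaks made 12 regions. Of these, 3 were in all 4 lists (on *Socs4*, *Socs5* and *Socs6*), against 17.8% of all 12350 regions. In both WT lists and neither KO list was 1 region, on *Cish*, against 3.32% of all regions, and in both KO lists and neither WT list there were 0, against 6.19%. The map of the peaks along the transcripts shows these regions as columns of bars, and it also shows that bars of a shared region often had different ends.

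*Cish* was the only member with a peak in both WT lists and neither KO list, a pattern found in 3.84% of the genes with a peak, and no member had the opposite pattern, found in 4.88%. The gene (ENSMUSG00000032578.7, chr9:107296026-107302784, + strand) has a transcript of 2850 bases in 3 exons and codes for 257 amino acids. In WT-1 it had 1 peak at chr9:107300732-107301182, from codon 202 over the stop codon and 282 bases into the 3′ UTR, with a score of 427.69, above 44.4% of the peaks of that list. In WT-2 a peak at chr9:107300833-107301182 ended at the same base and had a score of 297.79, above 25.0% of its list. A further peak of WT-2, at chr9:107301642-107301956 in the 3′ UTR, had a score above 5.16% of its list and held no GGAC. The listed *Cish* peaks thus ranked in the lower 50% of their lists. The exon bases of *Cish* under peaks were 451 in WT-1, 665 in WT-2 and 0 in KO-1 and KO-2. This is a difference of -558 bases between KO (0) and WT (558 ± 151, SD, n = 2), in which the groups did not overlap (p = 0.333 by the two-sided exact permutation test, and no lower p is possible with 2 mice a group). The genes with more exon bases under peaks in each WT than in each KO list were 8.39% of those with a peak, and those with more peaks 5.47%, and *Cish* was the only SOCS member of both kinds. *Cd4*, a gene of T cells, had the same pattern, with a peak in WT-1 and in WT-2, above 32.9% and 72.7% of their lists, and in neither KO list. It was 1 of 4 T cell markers, and the others had no peak (*Cd3d*, *Cd3e* and *Cd8a*), and no marker of B cells (3 genes), neutrophils (4), dendritic cells (3) or erythroid cells (3) had one. The part of other cells in the *Cish* result was not tested. Of 10 macrophage markers, 4 had a peak, with *Mertk* in all 4 lists, *Fcgr1* in the WT lists alone, *Mrc1* in WT-1 and KO-2 and *Cd14* in WT-2.

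*Socs2*, the member closest to *Cish* in its known role at STAT5-coupled receptors, had no peak in any list. Its gene (ENSMUSG00000020027.18, chr10:95385362-95417180, − strand) has a transcript of 2222 bases, the shortest in the family. It held 15 GGAC sites, or 6.75 per kb, the highest density of the 8 transcripts. Motif matches alone thus did not go with a listed peak here.

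The direct inhibitors of Janus kinases, *Socs1* and *Socs3*, had few peaks or none. *Socs3* (ENSMUSG00000053113.3, chr11:117966079-117970047, − strand) had no peak in any list, with 13 GGAC sites in 2552 bases (5.09 per kb). *Socs1* (ENSMUSG00000038037.5, chr16:10782240-10785536, − strand) had 1 peak in WT-2 and 1 in KO-1, and none in WT-1 and KO-2. The WT-2 peak (chr16:10783808-10784467) ran over the stop codon, from codon 135 to 425 bases past the CDS, with a score of 187.89, above 14.1% of its list. The KO-1 peak (chr16:10784632-10785011) lay over the start codon, on 140 bases of the 5′ UTR and the first 80 codons, with a score of 52.97, above 0.282% of its list. These peaks were at opposite ends of the CDS and shared no base. The exon bases under peaks were 0 and 660 in the WT and 380 and 0 in the KO lists. The groups overlapped, with means of 330 ± 467 (WT) and 190 ± 269 (KO, SD, n = 2; two-sided exact permutation test, p = 1).

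*Socs4* and *Socs5* code for proteins with long N-terminal stretches before the SH2 domain, and both have been linked to turnover of the epidermal growth factor receptor. In both genes the last exon holds the whole CDS together with the 3′ UTR, and the peaks of all 4 lists lay on the CDS. *Socs4* (ENSMUSG00000048379.9, chr14:47276931-47296102, + strand) has a CDS of 1311 bases in a last exon of 6586 bases. KO-1 and KO-2 listed the same interval there, chr14:47289517-47291076, which began at the first base of that exon, took in the CDS from start to stop codon and had scores of 982.76 and 576.75, above 62.4% and 41.2% of their lists. WT-1 had a peak at chr14:47289570-47290470, above 23.7% of its list, and WT-2 had a pair, at chr14:47289517-47289835 and chr14:47290086-47290479, above 42.0% and 53.5% of its list. Peaks covered 65.7% of the CDS in WT-1, 47.3% in WT-2 and 100% in both KO lists, and 651 bases were under a peak in every list. How many of all genes had more of the CDS covered in each KO list is not given here. The median width of all peaks was 488.5 bases in the WT and 521 in the KO lists. A separate region in the 3′ UTR (chr14:47293144-47294514) was listed in WT-1, where its score of 967.11 was above 69.5% of the list, and in KO-1, where a score of 232.11 was above 23.5%. This second region was in 1 mouse of each genotype. Over the whole gene, the exon bases under peaks were 2272 and 713 in the WT and 2381 and 1560 in the KO lists. The groups overlapped, at 1492.5 ± 1102 (WT) and 1970.5 ± 581 bases (KO, SD, n = 2; two-sided exact permutation test, p = 0.667).

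*Socs5* (ENSMUSG00000037104.9, chr17:87107679-87137839, + strand) had 1 peak in each list, and the peaks differed in position between the WT lists and between the genotypes. WT-1 had a peak at chr17:87133717-87134377, on codons 28 to 248, with a score of 891.03 above 67.4% of its list. WT-2 had a peak at chr17:87134518-87135631, from codon 295 to 387 bases past the CDS, with a score of 721.97 above 51.1% of its list. KO-1 and KO-2 listed the same interval, chr17:87133622-87135243, with scores of 2334.81 and 3100, above 79.6% and 80.5% of their lists. The WT peaks shared no base (Jaccard index 0), while those of the KO lists were identical (index 1), and the index across the genotypes was 0.361 to 0.408. The KO interval began at the first base of the last exon and covered 1610 of the 1611 bases of the CDS, and each WT peak covered 41.0% (WT-1) or 45.1% (WT-2) of it. The region was thus in all 4 lists only because the KO peaks bridged the 2 WT peaks, and no base of it was under a peak in every list. The exon bases under peaks were 661 and 1114 in the WT and 1622 in both KO lists, a difference of 734.5 bases between KO (1622 ± 0) and WT (887.5 ± 320, SD, n = 2; two-sided exact permutation test, p = 0.333, the lowest possible). *Socs5* was the only member with more exon bases under peaks in each KO than in each WT list, as were 18.9% of the genes with a peak.

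SOCS6 and SOCS7 form the other pair of long family members, which bind adaptor proteins of receptor tyrosine kinase and insulin signalling. *Socs6* (ENSMUSG00000056153.15, chr18:88665224-88927481, − strand) again has its CDS, of 1602 bases, in its last exon. In WT-1 a single peak (chr18:88868792-88870179, score 771.86, above 63.3% of its list) covered 61.9% of the CDS, and in WT-2 a single peak (chr18:88868952-88870800, score 2785.22, above 84.7%) covered all of it. In each KO list, the same stretch held 2 peaks with a gap between them. Those of KO-1 were at chr18:88870157-88870791 over the start codon, above 67.5% of the list, and at chr18:88868735-88869658 over the stop codon, above 35.2%. Those of KO-2 were at chr18:88870157-88870817 and chr18:88868735-88869590, above 46.6% and 47.5% of the list. The inner end of the peak over the start codon, after codon 211, and the outer end of the peak over the stop codon, 453 bases past the CDS, were the same base in both KO lists. *Socs6* was the only member with more peaks in each KO than in each WT list, as were 8.07% of the genes with a peak (two-sided exact permutation test, p = 0.333, the lowest possible). The bases under its peaks did not follow the number of peaks, at 1388 and 1849 in the WT lists and 1559 and 1517 in the KO lists (1618.5 ± 326 against 1538 ± 29.7, SD, n = 2; two-sided exact permutation test, p = 1). The last 40 codons of *Socs6* were under a peak in all 4 lists, which held for no other member. The same share over all genes is not given here, so this is not read as a trait of *Socs6*.

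*Socs7* (ENSMUSG00000038485.5, chr11:97362551-97398542, + strand) differs from the rest of the family in its gene structure, with a CDS of 1740 bases spread over 9 of the 10 exons of its 7015-base transcript. Its peaks lay in the first and the last exon. In the first exon, WT-1 had a peak at chr11:97362624-97363002, WT-2 at chr11:97362678-97363058 and KO-2 at chr11:97362803-97363172, above 31.0%, 44.9% and 25.0% of their lists, and 200 bases were common to these. KO-1 had no peak there. The last exon, of 5154 bases, holds all but the start of the 3′ UTR, which has 5184 bases. In this exon, WT-2 had a peak at chr11:97396508-97397140 (score 1695.74, above 73.9% of its list) and KO-1 an overlapping peak at chr11:97396610-97397508 (score 120.98, above 9.69%). KO-2 had separate peaks at chr11:97393405-97393783 and chr11:97398085-97398542, above 24.4% and 22.2% of its list. Every list thus had a *Socs7* peak, but no region of the gene was in all 4 lists, and the KO lists shared no base on it. No peak reached the last 40 codons. The exon bases under peaks were 379 and 1014 in the WT and 899 and 1207 in the KO lists, and the groups overlapped (696.5 ± 449 and 1053 ± 218, SD, n = 2; two-sided exact permutation test, p = 0.667).

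Summed over the family, peaks covered 5151 and 6015 exon bases in the WT and 6841 and 5906 in the KO lists.

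**Figure D2:**
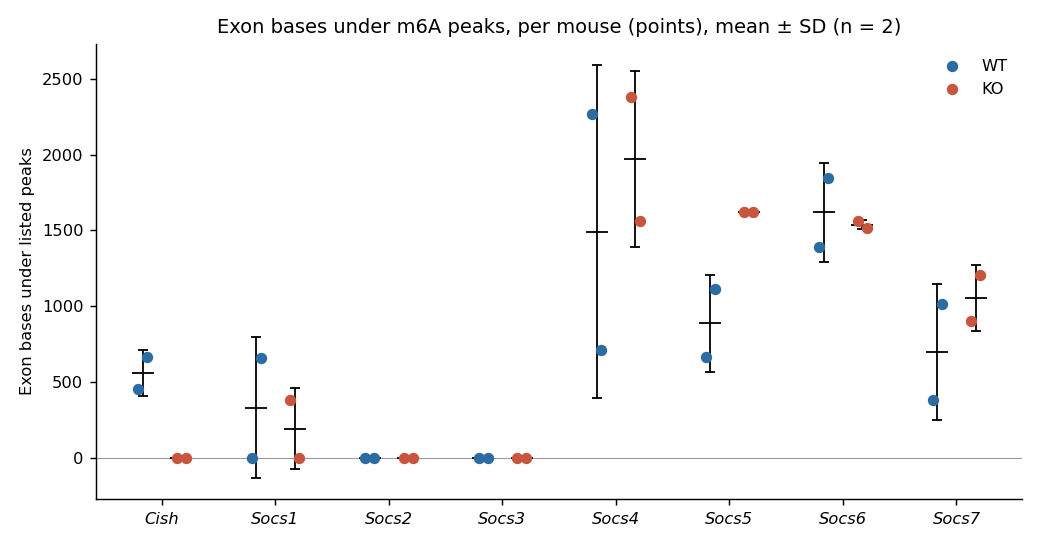
Exon bases under listed peaks (vertical axis) for each SOCS gene, with 1 point per mouse (WT in blue, KO in red) and the mean ± SD of each genotype (n = 2, black). The genotypes do not overlap for *Cish*, higher in WT, and for *Socs5*, higher in KO.

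The family means were 5583 ± 611 bases in WT and 6373.5 ± 661 in KO BMDMs (SD, n = 2), a difference of 790.5 bases in which the groups overlapped. Among the upper 50% of peaks of each list by score, the difference turned to -985.5 bases. Leaving out 1 list at a time gave 323 (without KO replicate 1) to 1258 bases (without KO replicate 2). The plot of bases by gene shows that the members did not move together. *Cish*, *Socs1* and *Socs6* had a lower mean in KO, *Socs4*, *Socs5* and *Socs7* had a higher mean in KO, and for 4 of these 6 the groups overlapped.

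The midpoints of most SOCS peaks lay on coding sequence, and the peaks differed in width between lists. They measured 315 to 1849 bases with a median of 661, where the median of all peaks was 488.5 in the WT and 521 in the KO lists. By list, the median width of SOCS peaks was 781 in WT-1, 899 in KO-1 and 661 in KO-2, above the medians of all peaks of those lists (478, 501 and 543), but 394 in WT-2, below that of its list (498). The midpoint lay in the CDS for 18 of the 29 peaks (62.1%, Wilson 95% interval 44.0 to 77.3) and in the 3′ UTR for 11 (37.9%, 22.7 to 56.0). For all placed peaks, the CDS share was between 47.5% (WT-2) and 54.9% (KO-1), inside that interval. The interval covers counting error only, and the 29 peaks share 6 genes. The stop codon was under 10 of the 29 SOCS peaks and the start codon under 11, with 6 and 4 of the 15 WT peaks and 4 and 7 of the 14 KO peaks. The same shares over all listed peaks are not given here. These counts are therefore not read as a trait of the SOCS genes or of a genotype.

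By score, which ranks peaks within a list but is no m6A level between lists, 11 of the 29 SOCS peaks stood in the upper 50% of their list (37.9%, Wilson 95% interval 22.7 to 56.0).

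**Figure D3:**
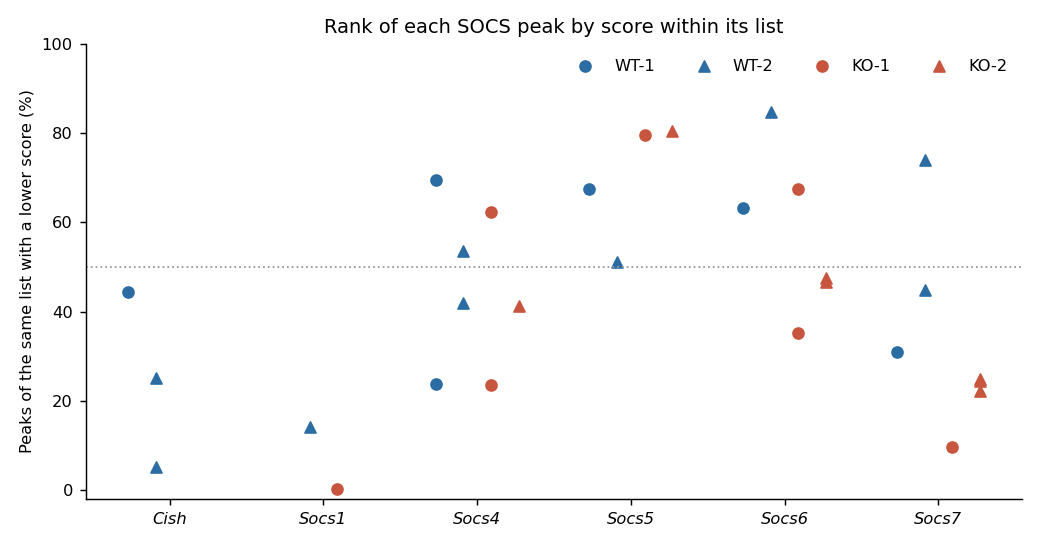
Share of the peaks of the same list with a lower score (vertical axis, %) for each SOCS peak, by gene, with WT in blue and KO in red, circles for replicate 1 and triangles for replicate 2. *Socs5* is the member with a point above the dotted line at 50% in all 4 lists, and all points of *Cish* and *Socs1* lie below it.

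*Socs5* had a peak in the upper 50% in all 4 lists. *Socs4* and *Socs6* had one in both WT lists and KO-1 but not in KO-2. *Socs7* had one in WT-2 alone, and *Cish* and *Socs1* in no list. The SOCS peaks in the upper 50% numbered 3 and 4 in the WT and 3 and 1 in the KO lists. The plot of ranks shows how far peaks on the same stretch could differ in rank, as in the overlapping 3′ UTR peaks of *Socs7* in WT-2 (73.9%) and KO-1 (9.69%).

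GGAC was present in 27 of the 29 SOCS peaks (93.1%, Wilson 95% interval 78.0 to 98.1), and in 86.1% to 87.9% of all peaks per list. The 2 peaks without it were the further 3′ UTR peak of *Cish* in WT-2 and the 3′ UTR peak of *Socs7* in KO-2 that began nearest to the CDS. DRACH was in all 29. The GGAC shares take no account of peak width. The median SOCS peak was wider (661 bases) than the median of all peaks (488.5 in the WT and 521 in the KO lists). In WT-2 alone it was narrower (394 against 498).

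**Figure D4:**
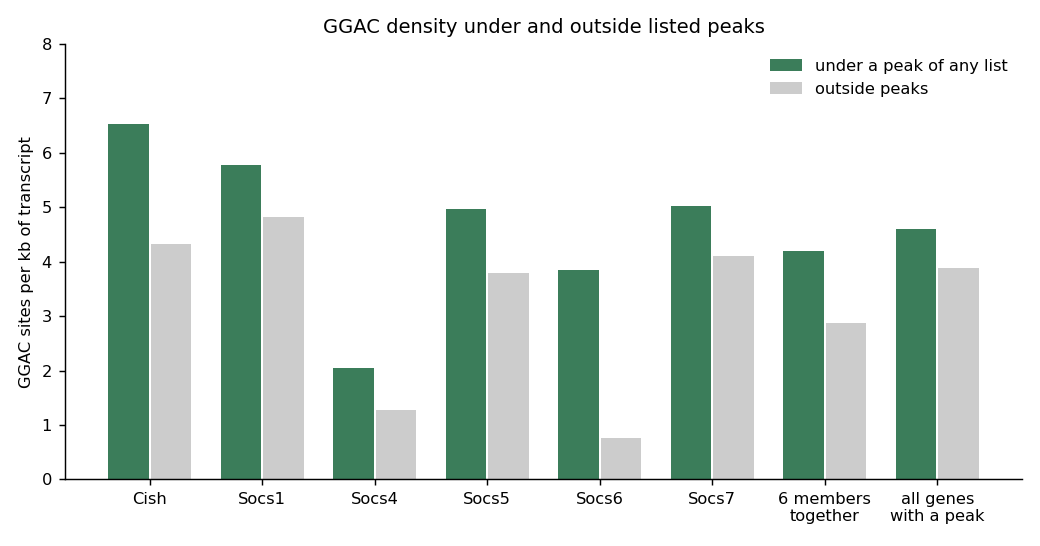
GGAC sites per kb of transcript (vertical axis) under a peak of any list (green) and outside peaks (grey), for the 6 SOCS transcripts with a peak, for these 6 together and for all genes with a peak. The green bar is the higher in each pair, and the widest ratio is that of *Socs6*.

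In each of the 6 members GGAC was denser under peaks than in the rest of the transcript, as in 56.7% of the 6780 genes in which both densities could be computed. Over the 6 transcripts together there were 47 sites in 11217 bases under peaks (4.19 per kb) and 55 in 19117 bases outside (2.88 per kb), where all genes with a peak had 4.59 and 3.89 per kb. The densities were furthest apart in *Socs6*, at 3.84 and 0.759 per kb, and lowest under the peaks of *Socs4*, at 2.05 per kb. The plot of GGAC density shows that *Socs4* and *Socs6* had few sites outside peaks, while *Cish*, *Socs1* and *Socs7* had more than 4 per kb there.

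Around the SOCS family, 76 genes in 6 lists were read in the same way. The lists were Janus kinases, STATs, cytokine receptors, elongin and cullin partners of the SOCS box, other inhibitors of the pathway and other SOCS-box proteins. Of these 76 genes, 39 had a peak and 18 had one in all 4 lists, beside 6 and 4 of the 8 SOCS genes, and 32.1% and 9.78% of all protein-coding genes.

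**Figure D5:**
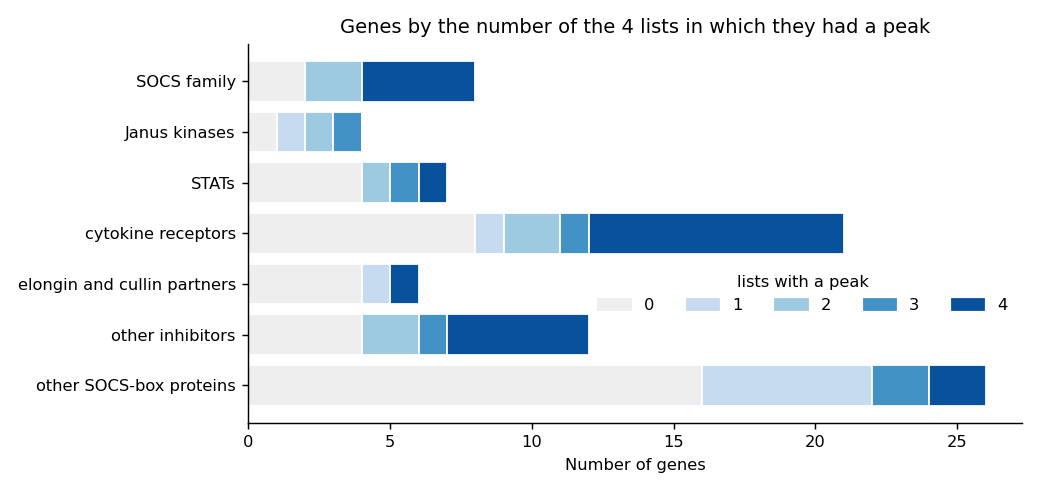
Number of genes (horizontal axis) of the SOCS family and of 6 lists of pathway genes by the number of the 4 lists in which they had a peak, from 0 (light grey) to 4 (dark blue). In the SOCS bar, 4 genes are dark blue, 2 had a peak in 2 lists and 2 in none, and no Janus kinase is dark blue.

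Of the 4 Janus kinases, the enzymes that SOCS1 and SOCS3 inhibit, 3 had a peak and none had one in all lists. *Jak1* was listed in both WT mice and in neither KO mouse, above 12.8% and 64.1% of the lists, and *Jak2* in 3 lists. Of the 7 STATs, the transcription factors that the kinases activate, 3 had a peak. *Stat2*, which acts in the response to type I interferons, had 1 in all 4 lists. No pathway gene was listed in the 2 KO mice alone, a pattern of 4.88% of all genes with a peak. Of the 21 cytokine receptors, 13 had a peak and 9 in all 4 lists, among them *Ifngr1* and *Ifnar2*, receptor chains for interferons, and *Il6st*, the shared signal chain of the IL-6 family, whose best peaks were on average above 85.1%, 85.1% and 84.3% of the lists. *Il13ra1* and *Il6ra* followed at 80.4% and 71.0%. Peaks of equal score were not ranked against each other. In KO-2, the best peaks of these receptor genes and the *Socs5* peak were tied, each above 80.5% of the list. *Ifngr1* and *Ifnar2* were tied in every list, so such shares are lower limits and do not order tied peaks. Of the 6 genes for elongin and cullin partners of the SOCS box, 2 had a peak, and *Cul5*, the cullin that SOCS proteins recruit, had one in all lists (70.6%). Of 12 other inhibitors of the pathway, 8 had a peak and 5 in all lists, with *Pias4* (79.0%) and *Cblb* (74.4%) ranked highest. Of 26 other genes for SOCS-box proteins, 10 had a peak and 2 in all lists, *Asb8* (83.8%) and *Tulp4* (77.2%). Of the 76 genes, 32 and 28 had a peak in the WT and 25 and 26 in the KO lists, and of the 8 SOCS genes 5 and 6 in the WT and 5 and 4 in the KO lists. Over all 21951 protein-coding genes, 4220 and 4378 had a peak in the WT and 4234 and 4485 in the KO lists. A difference between the genotypes in these counts was not tested. Levels of these transcripts were not read, since the lists hold peaks alone.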

How the data were processed

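MeRIP-Seq was performed with stranded libraries on BMDMs of 2 mice per genotype. The submitters' processing notes name cutadapt 1.9.3, HISAT2 2.0.4 and the build mm10 (GRCm38). The authors deposited 1 peak list per mouse, not pooled, with a score for each peak. The peak names have the form MACS gives, but the caller's settings are not given in the sources used here. Depth is unknown, so no precision per value can be stated, and scores were used only to rank peaks within a list.

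Starts were read as 0-based. Each peak was assigned to the protein-coding gene (GENCODE M21) with the largest exon overlap on its strand, of at least 1 base. Positions refer to the coding transcript with the longest CDS, and the exon bases under peaks to all exons of a gene. Genotypes were compared over the 6 labellings of the mice (exact permutation, two-sided), which cannot go below p = 0.333. Per the methods, controls were Cre-negative litter mates that shared cages with the KO mice, but no label ties single mice to a litter. A p-value is the share of these labellings with a difference of means at least as large as the observed one, in either direction. The SOCS members, the pathway and marker lists and the tests were chosen with earlier results of these data known. All members are named, and pathway genes where their peaks were in both lists of a genotype and in neither of the other, or among the 10 highest by mean rank of those in all lists. A few are named as background to these, and some results under this rule are not reported here. Alternatives were the upper 50% of peaks by score, an equal number of 6159 peaks per list, every overlapping gene, merging within 100 bases, a reciprocal overlap of 50%, other motif settings, a replicate block and each list left out. For the GGAC share, the equal number, every overlapping gene and the left-out lists were added after seeing the data. Functions were tested on simulated data. Python 3.11.15, numpy 2.4.6, scipy 1.17.1 and matplotlib 3.10.9 were used.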

Additional observations from a re-analysis of the deposited data

How the results depend on the processing

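Of 63 alternative values for 7 results, 47 kept the result. Some of these could not have changed, so this count is no measure of robustness. Leaving out a list cannot lower the number of members with a peak in all lists. The replicate block leaves the counts in all lists and the difference of exon bases as they were. With the upper 50% of peaks by score, which holds fewer peaks by construction, 1 member (*Socs5*) had a peak in all 4 lists, the regions in all 4 lists fell to 1 and those in both WT lists alone to 0, the difference of exon bases turned to -985.5, and the CDS and GGAC shares were 81.8% and 100%. With a reciprocal overlap of 50%, 2 regions were in the KO lists alone and 1 in all 4, since that rule does not join the split peaks. DRACH in place of GGAC gave 100%, and the central 200 bases of each peak 44.8%. Leaving out 1 list at a time gave 1 to 3 regions in the WT lists alone and 0 to 2 in the KO lists alone, since presence in a single list then sufficed, and left 4 members in all lists. The deviations of same-numbered mice did not go together (correlation 0.00733 over 12350 regions). With 2 mice a genotype, this cannot settle whether the numbers pair the mice. With a replicate block, presence in 1 pair sufficed, 4 regions were in WT and 3 in KO alone, and the smallest p possible was 0.5. With 2 mice a group and no read counts, a change in m6A level could not be measured.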

Other observations

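The number of peaks per list on *Socs7* (1 and 2 in the WT, 1 and 3 in the KO lists) was found for 5 other genes, *Nisch*, *Ppp2r3a*, *Smad3*, *Tns1* and *Vps54*, and that on *Cish* (1 and 2 in the WT, 0 in the KO lists) for 29. The pattern of 1 peak in each list, as on *Socs5*, was shared by 600 other genes. No peak lay on the opposite strand of a SOCS gene in any list.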
